A study of Rattus norvegicus with 16 samples.

Results

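Imprinted genes that act in fetal and early postnatal growth were followed in small mesenteric arteries of 2 rat strains, the spontaneously hypertensive rat (SHR) and the normotensive Wistar-Kyoto rat (WKY), each at an age of 6 weeks and again at 5 months. The set was 10 genes. They were selected on their known role and on these arrays' own change with age, in which *H19* and *Dio3* stood among the largest changes of SHR, so the values of the age comparisons that chose them are given as a description. Of the 10 genes, 8 had a probe whose accession is a RefSeq transcript of the gene, out of 15443 genes named on the array. *Peg3* and *Grb10* had no matched probe and are named only. The maternally expressed genes with a probe were *H19*, *Cdkn1c* and *Igf2r*, and the paternally expressed ones were *Igf2*, *Mest*, *Plagl1*, *Dlk1* and *Dio3*.

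All rats were untreated males of 6 sublines, namely WKY/NCrL, WKY/NHsd, WKY/NTac, SHR/NCrL, SHR/NHsd and the stroke-prone SHR/SP, obtained from different breeders. Each RNA sample was a pool of small mesenteric arteries from 5 animals of 1 subline at 1 age, cleaned of fat and blood, with adventitia and endothelium kept. The arrays that passed quality control held 3 pools of WKY at 6 weeks, 2 pools of WKY at 5 months (NCrL and NTac), 3 pools of SHR at 6 weeks and 2 pools of SHR at 5 months (NCrL and SP). A group difference rests on these 2 or 3 pools, each a mean over animals. Pool values below are log2 ratios of the pool over a common reference RNA, made from all test samples, so 0 is the level of the reference and a step of 1 is a doubling.

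Imprinted genes are read from 1 parental allele, the other being silenced by marks set in the germ line. Many paternally expressed genes promote growth of the young animal and many maternally expressed ones restrain it, and in most tissues of rodents a large part of this group is turned down after birth. *H19*, a non-coding RNA, and *Igf2*, a growth factor, lie side by side under 1 control region, and *Dlk1* and *Dio3* lie in another imprinted cluster. The microarray does not separate alleles, so each value is the sum of both.

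*H19* RNA is also the precursor of miR-675, and *Igf2* carries miR-483 in an intron. The mature sequences are shown because a change in the host RNA bears on them, although mature miRNAs were not analysed here. They are from RefSeq, build GRCr8, written 5′ to 3′ with the seed (bases 2 to 8) in capitals.
rno-miR-675-5p, chr1:207161800-207161821, strand -: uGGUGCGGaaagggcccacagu
rno-miR-675-3p, chr1:207161766-207161786, strand -: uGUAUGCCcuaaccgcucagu
rno-miR-483-5p, chr1:207247903-207247924, strand -: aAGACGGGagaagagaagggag
rno-miR-483-3p, chr1:207247865-207247886, strand -: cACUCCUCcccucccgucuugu
The 4 arms had 4 different seeds.

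Promoters are shown for *Mest*, *Igf2*, *Dio3* and *Ndn*, from RefSeq, build GRCr8. No window was available for *H19*. Each run is the 250 bases before a transcription start, 5′ to 3′ on the gene's strand, with every CpG in capitals, since methylation of CpGs is the mark by which imprinted alleles are told apart. *Igf2* has 2 windows, for 2 starts.
Mest, chr4:60321564-60321813, strand +: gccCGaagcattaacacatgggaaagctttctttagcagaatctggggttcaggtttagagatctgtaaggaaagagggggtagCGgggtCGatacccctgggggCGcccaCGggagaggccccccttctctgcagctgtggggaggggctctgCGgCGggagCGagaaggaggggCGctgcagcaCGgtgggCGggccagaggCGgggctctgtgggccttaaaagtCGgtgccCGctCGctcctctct
Igf2, first start, chr1:207253981-207254230, strand -: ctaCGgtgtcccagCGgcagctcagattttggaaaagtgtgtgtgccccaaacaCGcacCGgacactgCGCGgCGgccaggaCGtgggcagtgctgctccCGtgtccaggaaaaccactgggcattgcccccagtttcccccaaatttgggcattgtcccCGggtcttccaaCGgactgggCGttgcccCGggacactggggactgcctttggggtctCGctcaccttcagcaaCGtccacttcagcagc
Igf2, second start, chr1:207250476-207250725, strand -: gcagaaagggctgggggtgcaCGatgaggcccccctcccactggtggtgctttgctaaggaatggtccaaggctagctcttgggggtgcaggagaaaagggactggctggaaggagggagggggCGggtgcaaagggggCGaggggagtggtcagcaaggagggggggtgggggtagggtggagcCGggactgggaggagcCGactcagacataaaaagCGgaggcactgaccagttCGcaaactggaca
Dio3, chr6:135106822-135107071, strand +: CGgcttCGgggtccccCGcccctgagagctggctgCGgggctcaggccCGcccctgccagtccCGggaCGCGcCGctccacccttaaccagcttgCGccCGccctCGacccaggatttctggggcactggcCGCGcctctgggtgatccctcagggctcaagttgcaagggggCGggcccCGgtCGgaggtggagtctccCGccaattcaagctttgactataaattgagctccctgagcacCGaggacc
Ndn, chr1:125260809-125261058, strand +: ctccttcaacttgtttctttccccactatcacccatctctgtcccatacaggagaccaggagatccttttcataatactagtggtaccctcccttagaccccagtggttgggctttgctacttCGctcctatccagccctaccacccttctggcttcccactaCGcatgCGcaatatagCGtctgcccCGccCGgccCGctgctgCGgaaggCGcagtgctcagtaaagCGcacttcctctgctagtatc
The *Dio3* window held 19 CpGs, more than 81.6% of the 33469 windows of the same length in the table. The *Mest* window held 15, as did that of the first *Igf2* start, and each exceeded 74.2% of windows. The second *Igf2* start had 7 and *Ndn* had 10, against a median of 5. The letters TATAAA, searched on both strands, were found in the *Dio3* window, beginning 31 bases before the start, and in none of the others shown. They were present in 12.9% of all windows. GGGGCCCC, a palindrome bound by PLAGL1, was in 0.753% of all windows and in none of those shown. Methylation was not measured on these arrays.

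The 14 arrays resembled each other in quality, with 65.4% to 71.9% of spots well above background in the test channel, and the 10 member probes had a share of at least 0.5 of their spots above that mark on all 14. The 4 SHR pools that were hybridised on 2 arrays gave member values that differed by a median of 0.11 on the log2 scale, at most 0.37. The WKY/NTac pool of 6 weeks stood apart from the other WKY pools of its age for several members, and the WKY changes of *H19*, *Mest*, *Igf2* and *Dio3* are given with and without it. All 8 smooth muscle markers were above background on all arrays. So were the 6 endothelial, 7 fibroblast and 4 erythrocyte markers with a probe, and 6 of 7 adipocyte ones. Detection alone therefore does not identify the tissue.

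*H19* was high at 6 weeks and low at 5 months in SHR. The SHR pools of 6 weeks read −0.67 in SHR/NCrL, 1.23 in SHR/NHsd and 0.69 in SHR/SP. At 5 months SHR/NCrL read −3.07 and SHR/SP −2.61. Both older SHR pools were thus below every younger one, and they held the lowest *H19* levels of all 10 pools. The WKY pools of 6 weeks read 0.97 in WKY/NCrL, −0.03 in WKY/NHsd and −2.32 in WKY/NTac, and those of 5 months −1.66 in WKY/NCrL and −2.34 in WKY/NTac. The young WKY/NTac pool was already at the adult level, so that the WKY groups overlapped. The fitted difference between ages was −3.37 (SE 0.60) in SHR, a 10.3-fold lower level, and −1.54 (SE 0.69) in WKY, 2.91-fold lower. Without the young WKY/NTac pool the WKY value was −2.47. The older SHR pools were dim for *H19*, at a test intensity of 113.8 to 122 units, and under other settings of the processing the SHR difference ranged from −4.04 with processed signals to −2.80 at a normexp offset of 50. Within sublines, *H19* was 5.29-fold lower with age in SHR/NCrL, 9.88-fold lower in SHR/SP and 6.20-fold lower in WKY/NCrL, while WKY/NTac differed by −0.02.

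*Mest*, a paternally expressed hydrolase known for its role in growth and in the enlargement of fat cells, followed *H19* closely. The SHR pools of 6 weeks read −0.74 in SHR/NCrL, 1.05 in SHR/NHsd and 1.09 in SHR/SP, and those of 5 months −1.26 in SHR/NCrL and −1.51 in SHR/SP. The ages did not overlap in SHR, but SHR/NCrL was low at both. In WKY, the pools of 6 weeks read 0.78 in WKY/NCrL, 0.94 in WKY/NHsd and −0.90 in WKY/NTac, against −0.76 in WKY/NCrL and −0.28 in WKY/NTac at 5 months. Again the young WKY/NTac pool lay with the adults, here below both of them. The difference between ages was −1.97 (SE 0.46) in SHR, 3.93-fold lower, and −0.79 (SE 0.53) in WKY, or −1.38 without the young WKY/NTac pool. SHR/SP contributed most, with a 6.05-fold lower level at 5 months, against 1.43-fold in SHR/NCrL. The older SHR pools were dim for *Mest* too, at a test intensity of 119.2 to 169.5 units. Under other settings of the processing the SHR difference ranged from −2.41 with processed signals to −1.63 at a normexp offset of 50.

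*Igf2*, the paternally expressed fetal growth factor, was lower with age in the same direction but by less. Its SHR pools of 6 weeks read −0.19 in SHR/NCrL, 0.51 in SHR/NHsd and 0.32 in SHR/SP, and its SHR pools of 5 months −0.54 in SHR/NCrL and −1.65 in SHR/SP. The younger and older SHR pools were separate, with a narrow gap between the SHR/NCrL pools. The WKY pools of 6 weeks read 1.02 in WKY/NCrL, 0.96 in WKY/NHsd and −0.33 in WKY/NTac, and those of 5 months 0.40 in WKY/NCrL and −0.13 in WKY/NTac, so that the WKY ages overlapped. The difference between ages was −1.34 (SE 0.34) in SHR, 2.54-fold lower, and −0.42 (SE 0.39) in WKY, or −0.86 without the young WKY/NTac pool. In SHR it was −0.79 without the SHR/SP pool of 5 months.

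*Dio3* encodes the deiodinase that inactivates thyroid hormone, and it was the member with the largest positive difference at 5 months in both strains. The SHR pools of 6 weeks read −0.79 in SHR/NCrL, −1.52 in SHR/NHsd and −1.77 in SHR/SP, and those of 5 months 0.76 in SHR/NCrL and 2.09 in SHR/SP. The older SHR pools were the only 2 of the 10 above the reference. The WKY pools of 6 weeks lay close together, at −1.74 in WKY/NCrL, −2.03 in WKY/NHsd and −1.73 in WKY/NTac. At 5 months WKY/NCrL read −2.23 and WKY/NTac −0.25, on either side of the young pools. The difference between ages was 2.84 (SE 0.41) in SHR, 7.17-fold higher, and 0.59 (SE 0.47) in WKY, or 0.65 without the young WKY/NTac pool. The *Dio3* probe was dim in the low pools. In the 3 WKY pools of 6 weeks and in WKY/NCrL of 5 months its test intensity was 90.3 to 103.5 units, with a share of 0.5 of its spots well above background. The SHR/SP pool of 6 weeks, the base of the largest fold below, was also dim, at 104 and 118.5 units. SHR/NHsd of 6 weeks read 112.5 and 127 units. Under other settings of the processing the SHR difference ranged from 2.15 to 3.60. By subline, *Dio3* was 14.5-fold higher with age in SHR/SP, 2.93-fold in SHR/NCrL and 2.79-fold in WKY/NTac, and its difference in WKY/NCrL was −0.49. The sign of the WKY value depended on 1 pool, being −0.40 without WKY/NTac of 5 months and 1.59 without WKY/NCrL of 5 months.

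**Figure D1:**
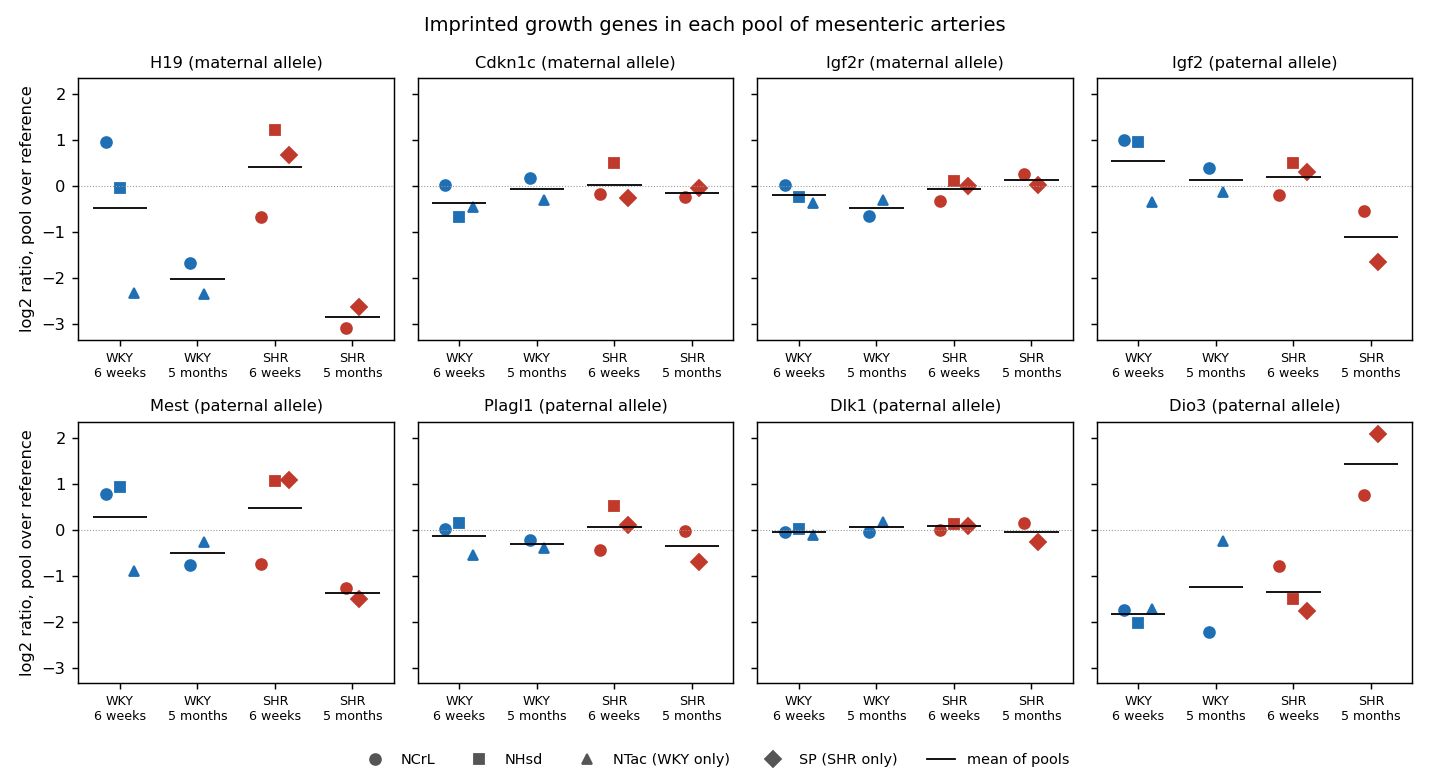
Log2 ratio of pool over reference (vertical axis) for 8 imprinted genes in the 4 groups (horizontal axis), 1 point per pool, the shape giving the subline and the bar the mean of pools. *H19* reads −3.07 and −2.61 in the older SHR pools and *Dio3* 0.76 and 2.09, while *Dlk1*, *Cdkn1c* and *Igf2r* stay within 1 unit of the reference in every pool.

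The other 4 genes differed less between ages. *Plagl1*, a zinc finger factor that activates several imprinted genes, ranged from −0.70 in SHR/SP at 5 months to 0.52 in SHR/NHsd at 6 weeks. Its difference between ages was −0.48 (SE 0.25) in SHR and −0.18 (SE 0.28) in WKY, and a second *Plagl1* probe gave −0.20 and −0.22. *Cdkn1c*, a maternally expressed inhibitor of the cell cycle, differed by −0.18 (SE 0.21) in SHR and 0.31 (SE 0.24) in WKY, with −0.13 and 0.25 on its second probe. *Igf2r*, the maternally expressed receptor that clears IGF2, differed by 0.18 (SE 0.16) in SHR and −0.28 (SE 0.19) in WKY. Its highest pool was SHR/NCrL of 5 months at 0.27 and its lowest WKY/NCrL of 5 months at −0.65. *Dlk1*, a membrane protein related to Notch ligands, ranged from −0.27 in SHR/SP at 5 months to 0.17 in WKY/NTac at 5 months. The *Dlk1* probe was dim, with a test intensity of 91.3 to 134.5 units over a background of 61.5 to 66.5, and the offset in the background correction narrows the ratios of dim probes. No group of pools was separated by age for these 4 genes in either strain.

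**Figure D2:**
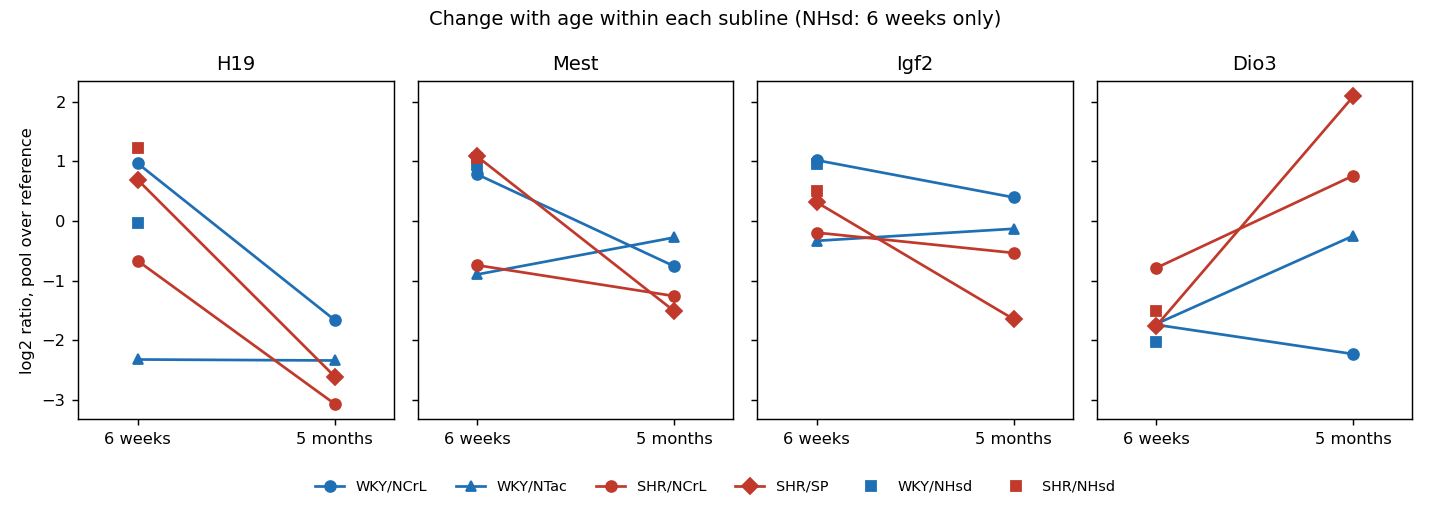
Log2 ratio of pool over reference (vertical axis) at 6 weeks and 5 months (horizontal axis) for *H19*, *Mest*, *Igf2* and *Dio3*, each line joining the pools of 1 subline (blue WKY, red SHR) and NHsd shown at 6 weeks alone. *H19* is lower at 5 months in 3 of the 4 lines and level in WKY/NTac, and *Dio3* is higher in 3 of the 4, WKY/NCrL being the exception.

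Maternally and paternally expressed genes did not form 2 opposite sets. In SHR, 2 of the 3 maternally expressed genes were lower at 5 months (median −0.18) and 4 of the 5 paternally expressed ones (median −0.48). In WKY the counts were 2 of 3 (median −0.28) and 3 of 5 (median −0.18). The median over all 30367 probes was 0.01 in SHR and −0.00 in WKY. The most negative value belonged to the maternally expressed *H19* and the most positive to the paternally expressed *Dio3*, and *H19* and *Igf2*, which take opposite alleles of 1 locus, were both lower with age.

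In limma's test across all probes with Benjamini-Hochberg adjustment, *H19* (lower) and *Dio3* (higher) were past an adjusted p of 0.05 for age in SHR, where 1.04% of all probes were called. In WKY 0 of the 8 members were called, where 0.181% of all probes were. An unadjusted p under 0.05 was found for 1 of the 8 (*H19*) in WKY, against 1981 of the 30367 probes. In SHR it was found for *H19*, *Dio3*, *Mest* and *Igf2*, against 2904 of the 30367 probes. Pools of the 2 ages did not overlap for 4 of the 8 members in SHR (*H19*, *Mest*, *Igf2* and *Dio3*), as for 24.4% of all probes, and for 0 of 8 in WKY, against 21.3% of all probes. Since the members were chosen on these comparisons, nothing is read from the counts or from any p-value of a member for age. The arrays lay on 2 slides, each with all 4 groups. Both slides held the same 2 older SHR pools, against 1 young pool on slide 1 (SHR/NCrL) and 2 on slide 2. In WKY, slide 1 held 1 older and 2 young pools, and slide 2 held WKY/NTac of 5 months and WKY/NHsd of 6 weeks alone. The slides are therefore not independent repeats, and they differ in sublines. Within slides, the SHR difference was −2.28 and −3.70 for *H19*, −0.53 and −2.57 for *Mest*, −0.89 and −1.51 for *Igf2*, and 2.27 and 3.02 for *Dio3*. In WKY it was −0.99 and −2.31 for *H19*, −0.70 and −1.21 for *Mest*, 0.05 and −1.09 for *Igf2*, and −0.50 and 1.78 for *Dio3*. When the arrays of a pool were averaged to 1 value, neither gene was called for age in SHR (adjusted p = 0.237 for *H19* and 0.138 for *Dio3*, limma). *H19* was also not called without any 1 of 4 SHR pools, namely SHR/NCrL or SHR/SP of 5 months and SHR/NHsd or SHR/SP of 6 weeks (adjusted p = 0.116 to 0.138), nor *Dio3* without SHR/SP of either age (0.118 at 5 months, 0.0616 at 6 weeks) or SHR/NHsd of 6 weeks (0.0547).

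The strain comparison asked whether SHR differed from WKY at the same age. At 6 weeks, 7 of the 8 members were higher in SHR and 1 lower, with 95% intervals that all included 0. By limma 0 of the 8 were called, with 0.29% of all probes called. An unadjusted p under 0.05 was found for 0 of the 8, against 2415 of the 30367 probes. Pools did not overlap for 0 of the 8, against 12.4% of all probes. The difference SHR minus WKY was 0.99 for *H19* (95% interval −0.25 to 2.23), 0.42 for *Dio3* (−0.44 to 1.27), 0.31 for *Mest* (−0.63 to 1.26) and −0.30 for *Igf2* (SE 0.33). These intervals leave room for differences of more than 2-fold in *H19*, *Mest* and *Dio3*.

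At 5 months, with hypertension established, *Dio3* was 6.35-fold higher in SHR than in WKY (log2 difference 2.67, SE 0.48, adjusted p = 0.023, limma). It was the 1 member called of 8, against 0.395% of all probes. This comparison shares the SHR pools of 5 months with the age comparison on which *Dio3* was chosen, so it is not independent of the choice. *Igf2* was lower in SHR by −1.23 (SE 0.39, adjusted p = 0.314) and *Igf2r* higher by 0.61 (SE 0.19, adjusted p = 0.289), and neither was called. An unadjusted p under 0.05 was found for *Dio3*, *Igf2* and *Igf2r*, against 2393 of the 30367 probes. *Mest* differed by −0.87 (SE 0.53) and *H19* by −0.84 (SE 0.70). Pools of the strains did not overlap for 5 of the 8 members (*Dio3*, *H19*, *Igf2*, *Igf2r* and *Mest*), but with 2 pools against 2 the same held for 37.9% of all probes. The *Dio3* difference was 3.71 on slide 1 and 1.62 on slide 2. The same 2 SHR pools were on both slides, against WKY/NCrL alone on slide 1 and WKY/NTac alone on slide 2. It was not called with the arrays of a pool averaged (adjusted p = 0.187), without SHR/SP of 5 months (2.00, adjusted p = 0.370) or without WKY/NCrL of 5 months (1.67, adjusted p = 0.356). Without SHR/SP or SHR/NHsd of 6 weeks the adjusted p was 0.0661 and 0.0525.

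**Figure D3:**
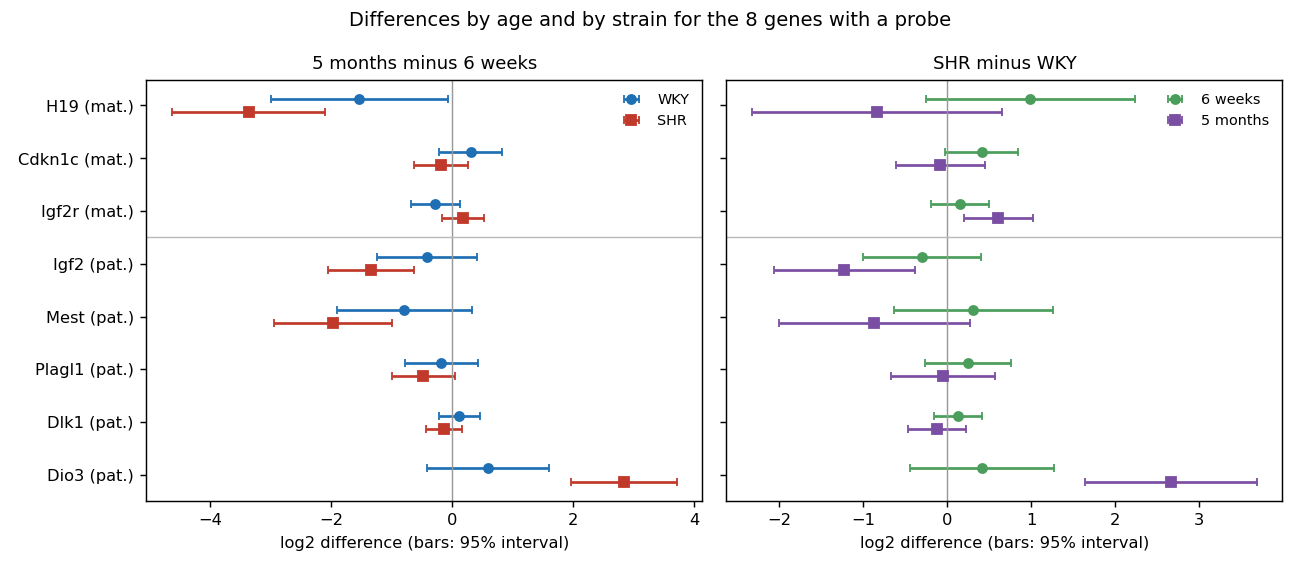
Log2 differences (horizontal axes) with 95% intervals for 8 imprinted genes (vertical axis, maternally expressed genes above the line), 5 months minus 6 weeks in each strain on the left and SHR minus WKY at each age on the right. *H19* at −3.37 and *Dio3* at 2.84 in SHR lie farthest from 0 on the left, and *Dio3* at 2.67 at 5 months on the right.

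Whether the change with age itself differed by strain was asked with the interaction term. Across all probes 0 were called (0%, limma), with 1250 at an unadjusted p under 0.05. For the members the SHR change minus the WKY change was 2.25 for *Dio3* (SE 0.63), −1.83 for *H19* (SE 0.91), −1.18 for *Mest* (SE 0.70) and −0.93 for *Igf2* (SE 0.51), given as a description.

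The levels of several members ran together over the 10 pools. Pearson's r was 0.907 between *H19* and *Mest*, 0.821 between *Igf2* and *Mest*, 0.798 between *Mest* and *Plagl1* and 0.750 between *H19* and *Igf2*. *Dio3* ran against *Igf2* (r = −0.871) and, less closely, against *Mest* (r = −0.656) and *H19* (r = −0.621). Between *Dio3* and *Dlk1*, of 1 cluster, r was −0.228. The dim *Dlk1* probe ranged only from −0.27 to 0.17 over the pools, and its repeat arrays differed by 0.11 to 0.18. Whether the 2 genes ran together therefore cannot be read from this value. All arrays share the reference RNA, and pools share strain, subline and age, so these are descriptions.

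Markers of other cell types moved with the same pools. The arteries had been cleaned of fat, yet 6 of the 7 matched adipocyte markers were above background on all arrays, *Lep*, the leptin gene, being so on 3 of 14. Their mean log2 ratio lay between −0.37 and 0.94 in SHR at 6 weeks and between −0.99 and −0.69 at 5 months. In WKY it lay between −1.27 and 0.33 at 6 weeks and between −0.37 and 0.17 at 5 months. All 7 were lower with age in SHR (median −1.31, for example *Adipoq* −1.92 and *Fabp4* −1.81), none of them called. In WKY 5 of the 7 were higher with age and 2 lower (median 0.34, none called), with the young WKY/NTac pool included. The marker mean was 0.115 in WKY/NCrL, 0.333 in WKY/NHsd and −1.27 in WKY/NTac at 6 weeks. At 5 months it was −0.37 in WKY/NCrL and 0.17 in WKY/NTac, so the direction in WKY depended on the young WKY/NTac pool. At 5 months all 7 were lower in SHR than in WKY (median −0.65), again with none called. The lowest adipocyte level of all pools, −1.27, was in the young WKY/NTac pool, where *H19* and *Mest* were also low. Over the 10 pools the adipocyte mean correlated with *Mest* at 0.891, *Plagl1* at 0.820, *H19* at 0.801, *Igf2* at 0.693 and *Dio3* at −0.456. The mean of 6 endothelial markers correlated with *Mest* at 0.869, *H19* at 0.865 and *Igf2* at 0.848, and that of 6 Schwann cell markers with *H19* at 0.858 and *Mest* at 0.769. Endothelial markers were lower with age in SHR in 6 of 6 (median −0.32), 1 of them called (*Emcn*, −1.04). Schwann cell markers were lower in 6 of 6 (median −0.60), with none called. Of 7 fibroblast markers 5 were lower with age in SHR and 2 higher (median −0.17), and 1 was called, *Col15a1* (−0.98). The 8 smooth muscle markers were all higher with age in SHR (median 0.24, for example *Des* 0.64, none called), and their mean correlated with *H19* at −0.634. The 4 matched erythrocyte markers were all lower in SHR (median −0.72, none called). The 10 proliferation markers were lower with age in both strains (median −0.76 in SHR and −1.08 in WKY, none called), and their mean correlated with *H19* at 0.681. The part of these markers in the change of the imprinted genes was not tested, and in pooled tissue fewer cells of a type and less RNA per cell cannot be told apart.

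**Figure D4:**
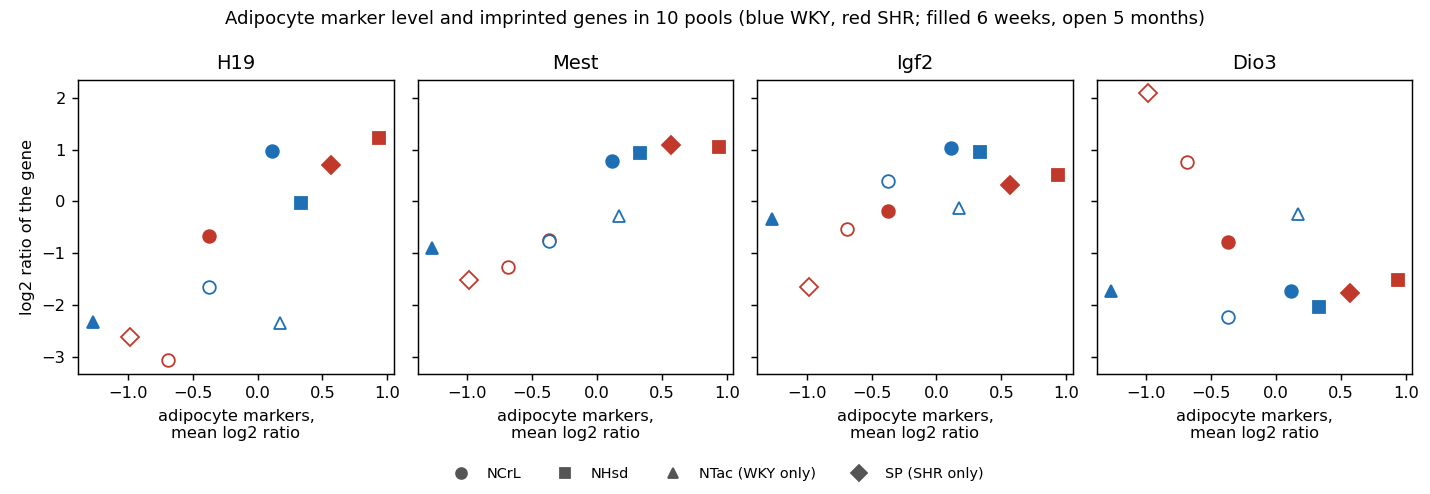
Log2 ratio of *H19*, *Mest*, *Igf2* and *Dio3* (vertical axis) against the mean log2 ratio of 7 adipocyte markers (horizontal axis), 1 point per pool, filled at 6 weeks and open at 5 months, blue for WKY and red for SHR. *Mest* (r = 0.891) and *H19* (r = 0.801) are higher in pools with more adipocyte marker RNA, and the young WKY/NTac pool is farthest left at −1.27.

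Among 9606 genes above background on all arrays, those whose pattern over the 10 pools was most like that of *H19* included *Clmp* (r = 0.960), a cell adhesion molecule, *Ppdpf* (0.957), *Tenm3* (0.952) and *Phgdh* (0.943), the first enzyme of serine synthesis. Their range was narrower than that of *H19*, as in *Clmp*, from −0.41 in SHR/NCrL at 5 months to 0.44 in SHR/NHsd at 6 weeks. Most like *Dio3* were *Olr1* (r = 0.981), the receptor for oxidized LDL, *Pdgfa* (0.968), a growth factor for smooth muscle, *Ccl11* (0.961), the chemokine eotaxin, *Esm1* (0.949), an endothelial proteoglycan, and *Ptpn9* (0.938). *Pdgfa* read 0.32 in SHR/NCrL and 0.75 in SHR/SP at 5 months and between −0.41 and −0.09 in the other 8 pools. *Esm1* read 1.07 and 2.04 in the same 2 pools, 0.78 in WKY/NTac of 5 months and −1.33 or less in the other 7.

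Among other imprinted genes few were called. Of 11 further paternally expressed genes with a probe, 1 fell with age in both strains and 0 rose. It was *Ndn*, the gene for necdin, a protein that restrains cell division. *Ndn* read 0.84 in SHR/NCrL, 0.94 in SHR/NHsd and 0.72 in SHR/SP at 6 weeks, and −0.29 in SHR/NCrL and −0.53 in SHR/SP at 5 months. In WKY it read 0.68 in WKY/NCrL, 0.80 in WKY/NHsd and 0.10 in WKY/NTac at 6 weeks, and −0.95 in WKY/NCrL and −0.92 in WKY/NTac at 5 months. Every older pool was below every younger one, across strains as well. *Ndn* fell by 1.25 (SE 0.15, adjusted p = 0.00172) in SHR and by 1.46 (SE 0.18, adjusted p = 0.00303) in WKY, by limma. The difference between the strains in this fall was 0.21 (SE 0.24). Averaging the arrays of a pool left it called in WKY (adjusted p = 0.0392) and not in SHR (adjusted p = 0.0766), and it was not called in WKY with SHR left out of the fit (adjusted p = 0.300), nor in SHR without SHR/SP of 5 months (adjusted p = 0.0724).

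The median change over the 11 paternally expressed genes was −0.19 in SHR and −0.08 in WKY. *Nnat*, a paternally expressed membrane protein of fat and brain, differed by −1.41 in SHR (adjusted p = 0.211) and 0.00 in WKY. Of 14 further maternally expressed genes, 1 fell in SHR and 0 were called in WKY, with medians of −0.13 in both. The gene was *Zim1*, a zinc finger gene of the *Peg3* locus, with a log2 difference of −1.05 (adjusted p = 0.0128). Its probe was well above background on 5 of 5 SHR arrays of 6 weeks and 0 of 4 of 5 months, so that its level at 5 months was not resolved and no fold is given. Averaged over the probes of the gene, the difference was −0.63 and was not called (adjusted p = 0.10). Nor was it called with arrays averaged (0.169), without SHR/SP (0.137) or SHR/NCrL (0.106) of 5 months, or without SHR/NHsd of 6 weeks (0.124). *Meg3*, *Rtl1*, *Kcnq1ot1* and *Airn*, neighbours of members, gave no value here, nor did *Peg10*. *Slc22a3*, an organic cation transporter next to *Igf2r*, differed by −1.32 in SHR (adjusted p = 0.105). *Phlda2* (0.17 in SHR, 0.19 in WKY) and *Sgce* (−0.01 and −0.09), which lie by *Cdkn1c* and *Peg10*, were level.

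In the IGF system around *Igf2*, 1 of 15 genes was called. *Igfbp3*, the main IGF carrier of the circulation, fell 2.83-fold with age in SHR (SE 0.20 on the log2 scale, adjusted p = 0.00358, limma), from between 0.31 and 0.96 in the 3 young pools to −0.80 in SHR/NCrL and −0.88 in SHR/SP. In WKY it differed by −0.63 (adjusted p = 0.572). *Igfbp5* differed by −1.11 in SHR and −1.19 in WKY (adjusted p = 0.166 and 0.445), and the receptor *Igf1r* by 0.11 and 0.08. *Igfbp3* was not called with the arrays of a pool averaged (adjusted p = 0.105) or without SHR/SP of 5 months (adjusted p = 0.0724).

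Around *Dio3*, 0 of 12 genes of thyroid hormone transport, conversion and response were called in either strain, their median change being −0.10 in SHR and −0.14 in WKY. The activating deiodinase *Dio2* was above background on 3 of 14 arrays, and *Dio1* on 0. The receptor *Thra* differed by −0.05 in SHR. *Thrsp*, a thyroid hormone response gene that is also high in fat cells, differed by −1.80 in SHR (adjusted p = 0.0909) and −0.66 in WKY (adjusted p = 0.940).

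Of 8 genes that set or keep imprints, 1 was called. *Dnmt3a*, a methyltransferase that sets new methylation, fell with age in SHR by 0.69 (SE 0.13, adjusted p = 0.0178), from between −0.02 and 0.25 to −0.47 in SHR/NCrL and −0.71 in SHR/SP. In WKY it differed by −0.57 (adjusted p = 0.208), its 2 older pools, at −0.46 and −0.37, lying below the 3 young ones, at 0.05 to 0.35. The WKY ages were without overlap for 21.3% of all probes. The call in SHR was lost with the arrays of a pool averaged (adjusted p = 0.200), and without SHR/SP (0.200) or SHR/NCrL (0.0502) of 5 months and SHR/SP (0.160) or SHR/NHsd (0.0774) of 6 weeks. Of 6 inhibitors of cyclin-dependent kinases beside *Cdkn1c*, 0 were called in either strain.

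Among 11 genes of the Notch pathway, in which DLK1 acts, 1 was called between strains. Of all probes, 0.29% were called at 6 weeks and 0.395% at 5 months. Of the 11 genes, 10 were lower in SHR at 6 weeks (median −0.22) and 9 at 5 months (median −0.21). The called gene went the other way. *Hes1*, a repressor switched on by Notch, was higher in SHR at 6 weeks by 0.78 (SE 0.14, adjusted p = 0.0321) and at 5 months by 1.21 (SE 0.17, adjusted p = 0.00657). Its 5 SHR pools lay between 0.27 and 0.72 and its 5 WKY pools between −0.78 and −0.13, without overlap at either age. Pools of the strains did not overlap for 12.4% of all probes at 6 weeks and 37.9% at 5 months. With the arrays of a pool averaged the adjusted p was 0.159 and 0.0731. Leaving out 1 pool ended the call for 6 of the 10 pools at 6 weeks (adjusted p = 0.0588 to 0.152) and for 3 of them at 5 months (SHR/SP, WKY/NCrL and WKY/NTac of that age, adjusted p = 0.0512 to 0.0786). With age *Hes1* differed by 0.27 in SHR and −0.15 in WKY, neither called.

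**Figure D5:**
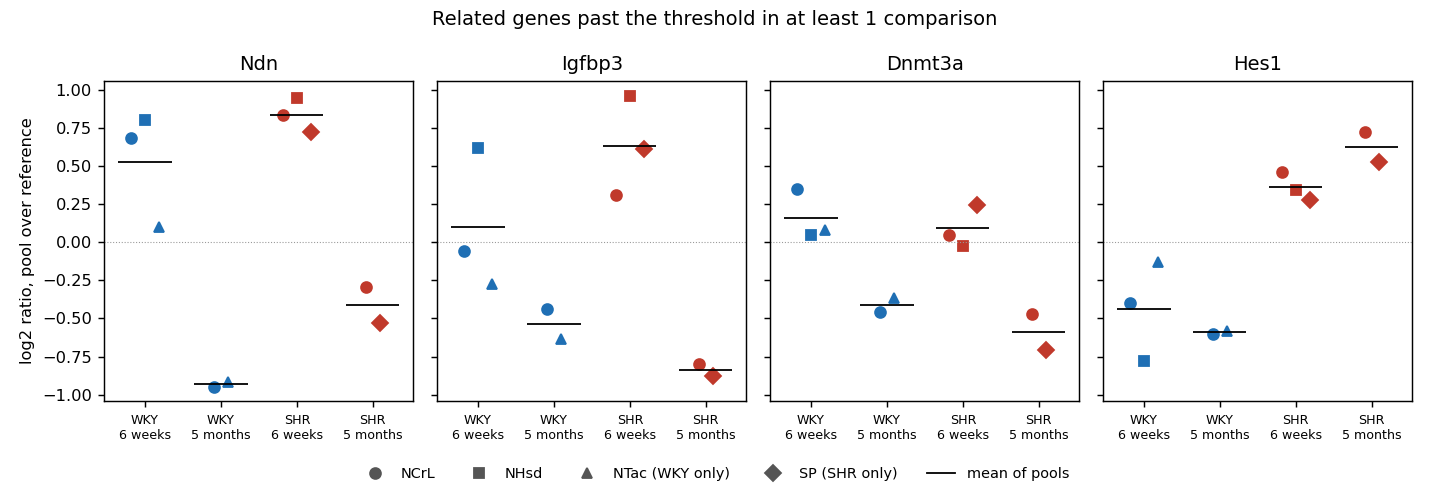
Log2 ratio of pool over reference (vertical axis) in the 4 groups (horizontal axis) for *Ndn*, *Igfbp3*, *Dnmt3a* and *Hes1*, 1 point per pool with the bar at the mean. *Ndn* lies between −0.95 and −0.29 in the 4 older pools and between 0.10 and 0.94 in the 6 younger ones, and *Hes1* is above 0 in the SHR pools and below 0 in the WKY pools.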

How the data were processed

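RNA of pooled mesenteric arteries (Cy3) was hybridised against a common reference (Cy5) on 2-colour Agilent rat arrays, without dye swap. The authors extracted spot intensity with Feature Extraction 10.7.3.1. The authors also deposited log2 ratios, which those rebuilt here matched (correlation at least 0.99988, scale and direction included). The submitters' processing notes name R 3.0.0 and limma.

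Here background was corrected by normexp (offset 15) and dyes by loess. Control and outlier spots were dropped, no spot was saturated, and spots of a probe were averaged. Ratios were turned to test over reference. In limma 3.58.1 (R 4.3.3), 4 strain and age groups were fitted on 14 arrays, with the correlation among arrays of a pool (0.442, duplicateCorrelation), and p-values were adjusted over 30367 probes. Repeat arrays of a pool thus added evidence, and p-values measure the spread between arrays and pools together. The arrays marked as failing quality control (2) were left out.

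Unversioned RefSeq accessions named 18355 probes (60.4%) through assembly GRCr8. Probe positions are not given, since the array's design used an earlier assembly. A gene's main probe had the highest mean test signal. All members were named, with the 5 genes most like *H19* and *Dio3* (1 of them is not reported here) and the genes of related lists past the threshold, at most 3 per comparison. Values of genes below the threshold were added after seeing them. Members and lists were chosen with earlier results of these data known. The fit was tested on simulated data. Alternatives covered background, normalization, filters, replicates, blocks and each pool left out. The number of pools limits the precision.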

Additional observations from a re-analysis of the deposited data

How the results depend on the processing

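No member reversed a called direction under any alternative, and uncalled values changed sign in 4 of 208 cases for age in SHR, 2 of 208 in WKY (the larger of them *Dio3*, from 0.59 to −0.40), 3 of 200 for strain at 6 weeks, 9 of 200 at 5 months and 2 of 200 for the interaction. *Dio3* stayed higher in SHR at 5 months (1.67 to 3.66 on the log2 scale). It was the 1 member called there, and 0 were called with Feature Extraction's processed signals, with both failed arrays included, with arrays of a pool averaged, with the first array of each pool and with only the compared groups fitted, and 0 to 1 with a pool left out.

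The number of probes called moved more. For age in SHR it was 317, and 496 at a normexp offset of 50, 89 with processed signals, 115 with median centring, 94 with failed arrays, 7 with arrays averaged, 9 with first arrays, 523 with only the compared groups, and 12 to 465 without 1 pool. For age in WKY it was 55, and 87, 28 and 13 at the offset of 50, with processed signals and with failed arrays, 91 with the test channel alone, 15 averaged, 14 with first arrays, 0 with only the compared groups, and 22 to 114 without 1 pool. For strain at 5 months it was 120, and 217, 25, 42 and 17 at the offset of 50, with processed signals, median centring and failed arrays, 11 averaged, 10 with first arrays, 52 with only the compared groups, and 10 to 162 without 1 pool. For strain at 6 weeks it was 88, and 152, 54, 49 and 17 under the same 4 settings, 179 with the test channel alone, 26 averaged, 21 with first arrays, 51 with only the compared groups, and 36 to 91 without 1 pool. The interaction had 0, 1 with the subline as a block, and 0 to 4 without 1 pool. The cause was not tested. Averaging leaves fewer arrays to estimate the spread from.

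Except for SHR/SP, which has 1 number at both ages, replicate numbers name different sublines in different groups, and they were not taken to pair pools. With the number as a replicate block, 901 probes were called for age in SHR, 217 for strain at 6 weeks and 36 for the interaction, and *Dio3* at 5 months was 2.53 (adjusted p = 0.0871, limma). *Mest* was called at 5 months in its place (−1.59, adjusted p = 0.0314). For age in SHR, *Mest* (adjusted p = 6.94e-05) and *Igf2* (adjusted p = 0.0198) were called beside *H19* and *Dio3*. The members were chosen on this age comparison, so nothing is read from these calls. With the arrays of a pool averaged and no such block, the adjusted p for age in SHR was 0.45 for *Mest* and 0.474 for *Igf2* (limma). Pools of 1 number deviated together at correlations of −0.03 to 0.07 in SHR and 0.06 to 0.17 in WKY, of 0.05 to 0.39 between strains at 6 weeks and of −0.14 at 5 months.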

Other observations

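The 2 arrays that failed quality control, of SHR/NHsd and WKY/NHsd at 5 months, entered no comparison. They had 60.4% and 56.5% of spots above background, in that order. Against the 6-week pool of its subline, the SHR/NHsd array read −2.82 for *H19*, −1.73 for *Mest*, −1.18 for *Igf2*, −1.02 for *Plagl1* and 0.63 for *Dio3* on the log2 scale. The WKY/NHsd array read −1.05 for *H19*, −1.56 for *Igf2*, 0.17 for *Mest* and 0.76 for *Dio3*, whose spots were not well above background on that array.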
